A study of Bos taurus with 6 samples.

Results

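Isolated CpGs are those with no other measured CpG close by. Most of them lie in CpG-poor surroundings, within a method built to read CpG-rich DNA, but some lie among many listed CpGs within 500 bp. A CpG was counted as isolated when none of the 6 libraries listed another CpG within 50 bp on either side, and when each library covered it by 5 to 500 reads. On chromosomes 1 to 29, 58003 CpGs met this rule among 1715187 CpGs tested, or 3.38%. Isolation was judged from the CpGs that the libraries list, not from the genome sequence, so that an isolated CpG can have unmeasured CpGs beside it.

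Reduced representation bisulfite sequencing (RRBS) was carried out on Holstein cattle, with 2 libraries for each of 3 cell types. Sperm came from commercial semen straws of 2 bulls. Monocytes were purified from the blood of 2 cows, by the CD14 marker according to the methods of the study. Fibroblasts were derived from ear skin of 2 females, adult heifers according to the methods of the study, and grown in primary culture up to a late passage. Each library came from a different animal. Cell type and sex cannot be told apart between sperm and the somatic cells, nor cell type and culture for the fibroblasts. The sperm and fibroblast libraries received 14 PCR cycles and the monocyte libraries 12, and this difference runs with the monocyte label.

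RRBS uses the enzyme MspI, which cuts at CCGG whether or not the inner CpG is methylated, and then bisulfite, which converts unmethylated but not methylated cytosines. The share of reads that keep the cytosine gives the methylation of the CpG. In mammalian genomes most CpGs outside CpG islands are methylated in most cell types, whereas CpG islands, where CpGs lie close together, are mostly unmethylated. In cultured cells, long stretches of CpG-poor DNA can lose part of their methylation.

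Summed over all listed CpGs, also those off the autosomes, the coverage of the libraries ran from 45884839 to 78890776. A read over several CpGs counts at each of them, so that these sums are not numbers of reads. A member had a median coverage of 10 and 13 reads for sperm but 13 and 10 for monocytes, with 16 and 18 for fibroblasts. The other CpGs had medians of 14 to 24 reads, so that a member's percentage is coarser than that of an average CpG. The labels were checked against chromosome X, whose median coverage relative to the autosomes was 0.692 and 0.714 in the bull sperm libraries and 0.947 to 1 in the libraries from females. Before the coverage limits, 314840 isolated CpGs were listed in at least 1 library and 133718 in all 6. Of these 314840, 256818 had fewer than 5 reads in at least 1 library and 24 had more than 500 reads in at least 1. The members lay a median of 69 bp from the nearest listed CpG and had a median of 5 others within 500 bp, against 31 for the other CpGs. Every autosome held members, from 976 on chromosome 27 to 3211 on chromosome 19. They made up 2.49% of the CpGs tested on chromosome 25 and 5.07% on chromosome 28.

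Isolated CpGs were almost fully methylated in sperm, highly methylated in monocytes and only partly methylated in fibroblasts. Averaged with every CpG counting equally, their methylation was 88.8% and 88.2% in the sperm libraries. The monocyte libraries had 81.8% and 81.2%, and the fibroblast libraries 57.6% and 59.5%. The 3 cell types did not overlap, and replicates differed by far less than the cell types did. The averages were 88.5 ± 0.403% for sperm, 81.5 ± 0.419% for monocytes and 58.5 ± 1.28% for fibroblasts (SD, n = 2 libraries). Monocytes minus sperm came to -6.99 points, fibroblasts minus sperm to -29.9 points, and monocytes minus fibroblasts to 22.9 points. With 2 libraries against 2, an exact two-sided permutation test over libraries gave p = 0.333 for each pair, the smallest p that this design allows. Sperm exceeded the 4 somatic libraries by 18.5 points (exact permutation over libraries, two-sided p = 0.133, which is the least that 2 against 4 allow). Where the groups do not overlap, these p-values are fixed by the number of libraries and do not measure the spread between animals.

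The same libraries had another order over the other 1657184 autosomal CpGs. There the averages were 49.0% and 48.6% for sperm, 53.8% and 53.5% for monocytes, with 45.8% and 46.3% for fibroblasts, so that sperm lay between the somatic cell types. Isolated CpGs exceeded the other CpGs by 39.8 and 39.6 points in the sperm libraries. Monocytes had an excess of 28.0 and 27.7 points, and fibroblasts one of 11.8 and 13.1 points. Over the 6 libraries it averaged 26.7 points and was positive in 6 of 6 (exact two-sided sign-flip permutation test, p = 0.03125, which 6 libraries cannot go below). The excess in fibroblasts minus that in sperm was -27.2 points, and that in monocytes minus that in sperm was -11.8 points (exact permutation test, p = 0.333 each).

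The number of neighbours was followed by the level in a way that differed between the cell types. With 1 other listed CpG within 50 bp, the averages were 84.7% and 84.0% for sperm, 79.9% and 79.5% for monocytes, with 61.2% and 62.4% for fibroblasts. With 2 to 4 neighbours they were 71.4% and 70.8%, 72.2% and 71.9%, and 59.95% and 60.6%, in the same order. The 938630 densely packed CpGs, with 5 or more neighbours, had averages of 29.97% and 29.7% for sperm, 38.6% and 38.3% for monocytes, with 34.8% and 35.1% for fibroblasts. Sperm therefore went from the highest of the cell types at isolated CpGs to the lowest at densely packed CpGs. In fibroblasts, isolated CpGs were below CpGs with 1 neighbour in both libraries, whereas in sperm and monocytes they were above them in all 4. Isolated minus densely packed CpGs came to 58.7 points in sperm, 43.0 in monocytes and 23.6 in fibroblasts, and to 41.8 points over the 6 libraries, positive in 6 of 6 (exact sign-flip permutation test, p = 0.03125). The limits given for the sign-flip test against the other CpGs hold for this one too.

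**Figure D1:**
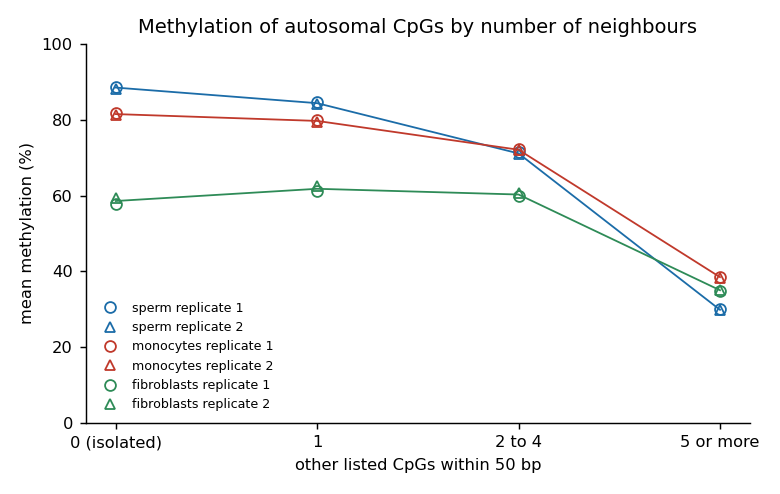
Mean methylation (%) of autosomal CpGs by the number of other listed CpGs within 50 bp, with circles and triangles for the 2 libraries of a cell type and lines through their mean. Sperm is highest at isolated CpGs, at 88.8% and 88.2%, and lowest at densely packed CpGs, at 29.97% and 29.7%, while fibroblasts stay near 60% up to 4 neighbours.

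The limit of 50 bp did not mark a step. CpGs just outside it, with the nearest listed CpG 41 to 50 bp away, had averages of 83.5% and 82.8% for sperm, 77.8% and 77.3% for monocytes, with 57.5% and 58.5% for fibroblasts. Members just inside, at 51 to 60 bp, had 85.4% and 84.7%, 79.1% and 78.5%, and 56.96% and 58.3%. Farther out the sperm and monocyte averages were higher. The 13551 members at over 100 and up to 200 bp had 92.6% and 92.2% for sperm, 85.5% and 84.9% for monocytes, with 60.1% and 62.6% for fibroblasts. Only 86 members had no listed CpG within 1000 bp, with averages of 89.2 ± 1.14% for sperm, 82.9 ± 1.96% for monocytes and 60.9 ± 2.27% for fibroblasts. The limit on coverage did not mark a step either. The 11291 members whose lowest coverage was 5 reads averaged 88.4% and 87.8% in sperm and 58.1% and 60.1% in fibroblasts. The 13060 isolated CpGs left out because their lowest coverage was 4 reads averaged 89.5% and 88.8% in sperm and 58.4% and 59.6% in fibroblasts.

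The distribution behind these averages also differed between the cell types. CpGs were called hypomethylated below 20%, hypermethylated above 80% and intermediate between these limits. Sperm had 86.6% and 86.2% of its isolated CpGs hypermethylated, monocytes had 73.7% and 71.1%, and fibroblasts only 30.1% and 33.0%. The intermediate share was 6.62% and 6.67% for sperm, 18.6% and 20.9% for monocytes, with 53.3% and 51.5% for fibroblasts, more than that of the other classes together. The hypomethylated share was 6.82% and 7.11% for sperm, 7.77% and 7.99% for monocytes, with 16.6% and 15.5% for fibroblasts. Each share separated sperm from all 4 somatic libraries, with sperm minus somatic at 34.4 points for hypermethylated, -29.4 for intermediate and -4.99 for hypomethylated CpGs (exact permutation test, p = 0.133 each). The hypomethylated share was the least stable, at -2.85 points with a window of 30 bp, where sperm no longer lay apart from all 4 somatic libraries (exact permutation test, p = 0.8), and at -2.63 points with classes split at 10% and 90% (p = 0.133). Among the other CpGs, the mean intermediate share was 5.87% for sperm, 10.9% for monocytes and 25.9% for fibroblasts, and the mean hypomethylated share was 47.8%, 40.1% and 41.5%.

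The extremes show the same order. Every read was methylated at 67.4% and 62.6% of the members for sperm, at 36.7% and 41.1% for monocytes, and at 9.48% and 9.70% for fibroblasts. The fibroblast libraries were also the deepest, which leaves more room for a value just under 100%, and the part of depth in this share was not tested. The median member stood at 100% in both sperm libraries, at 92.0% and 90.9% in monocytes and at 63.2% and 66.7% in fibroblasts. The quartiles of the fibroblast libraries ran from 33.3% to 84.6% and from 35.0% to 86.7%. Fibroblasts had a broad spread of levels with a small low peak. The class below 10% held 10.9% and 10.0% of the members, the class from 10% to 20% held 5.70% and 5.50%, and each class from there to 80% held 6.18% to 11.4%.

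**Figure D2:**
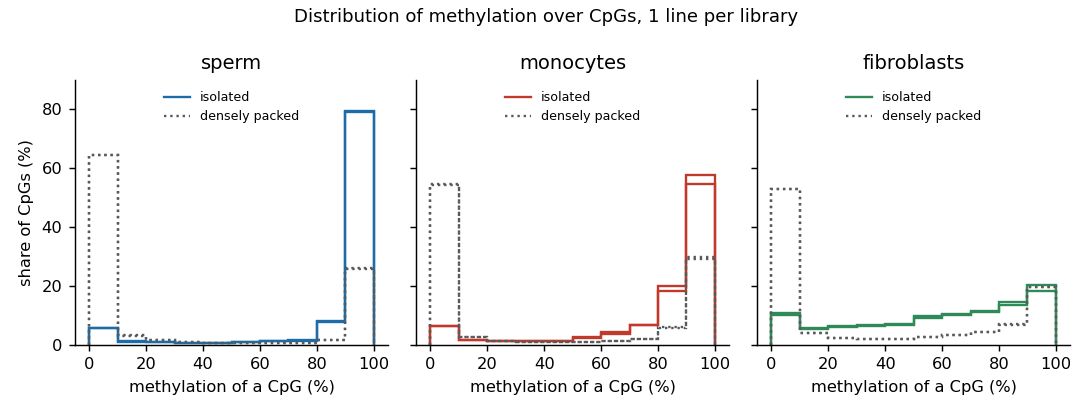
Share of CpGs (%) in classes of 10 points of methylation, for isolated CpGs (solid, coloured) and densely packed CpGs (dotted, grey), with 1 line per library. In sperm 79.5% and 79.2% of isolated CpGs lie at 90% or above, against 57.5% and 54.6% in monocytes and 18.4% and 20.3% in fibroblasts, where the rest spread over all classes.

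Isolated CpGs lie mostly in sparse surroundings, and the wider surroundings were compared next. Of the members, 32520 had at most 5 other listed CpGs within 500 bp. These averaged 93.8% and 93.3% for sperm, 85.2% and 84.6% for monocytes, with 59.2% and 61.3% for fibroblasts. In sperm and monocytes the averages were lower in each class with more CpGs within 500 bp. With 6 to 10 such CpGs, the 11359 members had 90.9% and 90.2% for sperm, 82.2% and 81.5% for monocytes, with 57.5% and 59.2% for fibroblasts. With 11 to 20, the 8985 members had 84.8% and 84.1% for sperm, 79.0% and 78.4% for monocytes, with 57.7% and 59.1% for fibroblasts. Fibroblasts thus had like values in both classes. With 21 to 40, the 4473 members had 64.3% and 63.5% for sperm, 66.8% and 66.3% for monocytes, with 50.4% and 51.3% for fibroblasts. The 666 members with 41 or more had 26.7% and 27.4% for sperm, 48.0% and 47.5% for monocytes, with 32.4% and 33.5% for fibroblasts. In these crowded surroundings an isolated CpG was thus higher in monocytes than in sperm in every library, the reverse of the order over all members.

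Much of the excess of isolated CpGs went with these surroundings. Among CpGs with at most 5 others within 500 bp, isolated CpGs exceeded the other CpGs by only 2.86 and 2.96 points in sperm. In monocytes the differences were 0.136 and -0.206 points, of opposite sign in the replicates. In fibroblasts they were -8.03 and -6.97 points, so that isolated CpGs were less methylated than other CpGs of like surroundings. Of these 32520 members, 31223 could be matched to other CpGs with exactly the same number of CpGs within 500 bp and the same class of mean coverage. Matched differences were 2.37 ± 0.117 points for sperm, -0.393 ± 0.326 for monocytes and -6.65 ± 0.827 for fibroblasts (SD, n = 2 libraries). Fibroblasts minus sperm came to -9.02 points (exact permutation test, p = 0.333), with no overlap between the cell types. The class of 6 to 10 CpGs had a still lower value in fibroblasts, at -10.5 and -9.40 points. Above 40 CpGs, isolated CpGs exceeded the others in all 6 libraries, by 10.1 to 23.5 points.

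**Figure D3:**
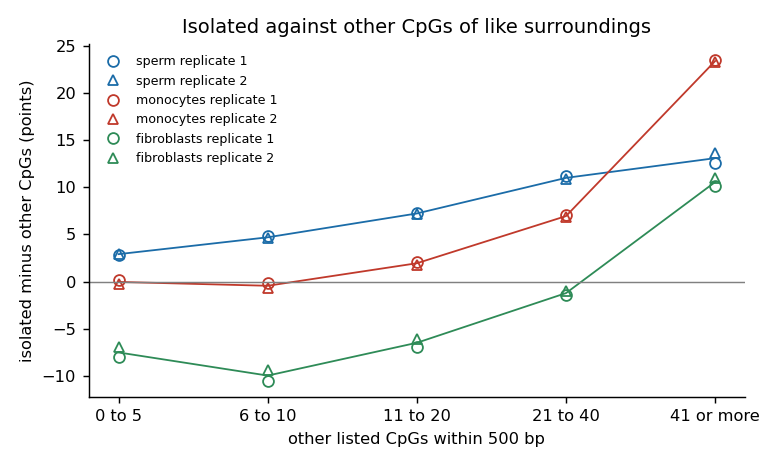
Difference in mean methylation (points) between isolated CpGs and the other CpGs of the same class of surroundings, by the number of other listed CpGs within 500 bp, with 1 symbol per library and lines through the mean of the replicates. In the sparsest class sperm lies at 2.86 and 2.96, monocytes at 0.136 and -0.206 and fibroblasts at -8.03 and -6.97 points.

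Differentially methylated CpGs (DMCs) were then called between pairs of cell types, by a logistic regression of the reads summed over replicates. A DMC had a Benjamini-Hochberg adjusted p below 0.01 over all 1715187 CpGs and a difference of at least 25 points. The 3 comparisons share libraries, so that their calls are not independent. The test treats reads as independent, and the variation between animals does not enter it. Between the replicates of a cell type the same test called 71 members in sperm, or 0.122%, against 0.304% of all CpGs tested. It called 44 members between the monocyte replicates, or 0.0759% against 0.169%, and 305 between the fibroblast replicates, or 0.526% against 0.659%. These comparisons set a single library against another, with fewer reads than between cell types, so that fewer differences can be called. The share also depended on mean coverage. Between the sperm replicates it was 0.0108% of the members and 0.0821% of the other CpGs at 5 to under 10 reads. At 20 to under 30 reads it was 0.406% and 0.462%.

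Fibroblasts differed from sperm at a large share of the isolated CpGs, nearly always by being less methylated. The test called 28722 members, or 49.5%, against 28.5% of all CpGs tested. Fibroblasts were lower at 26912 members, or 46.4% against 17.0%, and higher at 1810, or 3.12% against 11.5%. Sperm was hypermethylated at most members, which leaves little room for a higher value in fibroblasts. The part of the sperm level in these shares was not tested. The median absolute difference of the called members was 54.9 points, and at 99.0% of them the 2 libraries of one cell type lay on one side of the 2 of the other. At like depth the difference from the other CpGs remained. In the class of mean coverage from 10 to under 15 reads, fibroblasts were lower at 45.3% of the members and at 17.4% of the other CpGs. With a common overdispersion estimated from the replicates, 12015 members were called, or 20.7%, against 16.1% of all CpGs tested.

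Monocytes differed from sperm at fewer members, and mostly in the same direction. The test called 8807 members, or 15.2%, against 18.3% of all CpGs tested. Monocytes were lower than sperm at 5994 members, or 10.3% against 5.62%, and higher at 2813, or 4.85% against 12.7%. Of the called members, monocytes were higher at 31.9%, against 70.4% of the called other CpGs. The high sperm levels of the members leave less room for a higher value in monocytes. Their part in this contrast was not tested. Read at like depth, the order of the total shares depended on the coverage. From 20 to under 30 reads of mean coverage the test called 19.7% of the members and 17.8% of the other CpGs, and from 30 to under 50 reads 29.5% and 17.9%, whereas from 10 to under 15 reads it called 13.9% and 16.8%. In each of these 3 classes monocytes were lower at more of the members than of the other CpGs, and higher at fewer. The difference had a median size of 66.1 points. With the common overdispersion 4670 members were called, or 8.05%, against 13.5% of all CpGs tested.

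Monocytes and fibroblasts, both somatic, also differed at many members. The test called 21085, or 36.4%, against 17.4% of all CpGs tested. Monocytes were higher at 19201 members, or 33.1% against 14.1%, and lower at 1884, or 3.25% against 3.29%, which is close to the background. The median absolute difference was 53.0 points. With the common overdispersion 6123 members were called, or 10.6%, against 6.55% of all CpGs tested. Without monocyte replicate 1 the count was 11737, or 20.2% of the members against 11.2% of all CpGs tested.

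**Figure D4:**
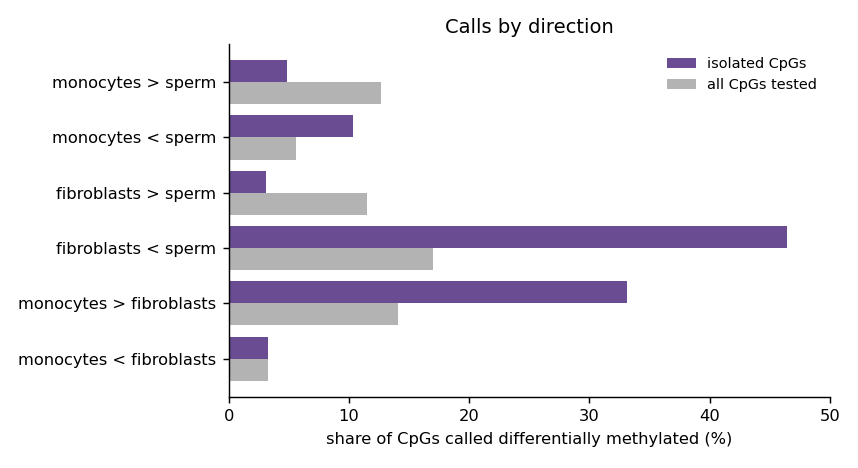
Share of CpGs (%) called differentially methylated in each comparison and direction, for isolated CpGs (purple) and all CpGs tested (grey). Fibroblasts were lower than sperm at 46.4% of isolated CpGs against 17.0% of all, and monocytes higher than fibroblasts at 33.1% against 14.1%.

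The members were then sorted by the cell type that stood apart from both others. Fibroblasts formed the largest such set. At 15945 members, or 27.5% against 9.61% of all CpGs tested, fibroblasts were lower than sperm and monocytes, which did not differ by the test. Their median levels were 100% in sperm, 93.3% in monocytes and 35.5% in fibroblasts. In the opposite direction 137 members were called, or 0.236% against 0.933%, with median levels of 2.94%, 5.56% and 68.2%. Without monocyte replicate 1 the lower set held 9247 members, or 15.9% against 6.14%, and with the common overdispersion 4505, or 7.77% against 3.33% of all CpGs tested. Without any test, both fibroblast libraries lay below the other 4 at 31288 members, or 53.9%, against 21.6% of all CpGs tested.

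Sperm stood apart from both somatic cell types at 4249 members, or 7.33% against 11.0% of all CpGs tested. Sperm was higher at 3004 of them, or 5.18% of the members against 2.53%, where sperm had a median of 100%, monocytes 27.8% and fibroblasts 25.8%. Sperm was lower at 1245, or 2.15% against 8.51%, with medians of 6.79%, 91.7% and 79.4%. Lower methylation in sperm thus made up 29.3% of the sperm-specific members (Wilson 95% interval 28.0% to 30.7%), against 78.2% of the other sperm-specific CpGs (78.0% to 78.3%). The reads carry no molecular identifiers and neighbouring CpGs are not independent, so that these intervals, like those of single CpGs, cover counting error only. The share depended on the surroundings, from 16.3% of 1852 sperm-specific members with at most 5 CpGs within 500 bp to 62.5% of 549 with 21 to 40 and 89.2% of 65 with 41 or more. The level in sperm also limits the direction of a call. Sperm was hypermethylated at a mean of 86.4% of the members but 46.3% of the other CpGs. It was hypomethylated at 6.96% against 47.8%, so that fewer members left room for a call of lower methylation in sperm. The part of these levels in the contrast of 29.3% with 78.2% was not tested. With the common overdispersion 2066 members were sperm-specific, or 3.56% against 8.29% of all CpGs tested, and 30.1% of them were lower in sperm. Without any test, both sperm libraries lay above the 4 somatic libraries at 15553 members, or 26.8% against 12.5%, and below them at 2554, or 4.40% against 13.6%.

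Monocytes stood apart least often. They were lower than both other cell types at 1052 members, or 1.81% against 1.46% of all CpGs tested, where sperm had a median of 98.1%, monocytes 12.5% and fibroblasts 84.9%. They were higher at 871 members, or 1.502% against 1.81%, with medians of 16.5%, 87.5% and 25.2%. Both shares were near the background.

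The levels were also combined over the 3 cell types, taking a class as given where both replicates fell into it. At 33178 members, or 57.2% against 35.2% of the other CpGs, both sperm and both monocyte libraries were above 80%. At these CpGs the fibroblast libraries averaged 67.1% and 68.8%, and both were intermediate at 37.0% of the members and above 80% at 27.9%. Among the other CpGs high in sperm and monocytes, both fibroblast libraries were intermediate at 21.5% and above 80% at 51.9%. Partial methylation in fibroblasts alone was the most frequent pattern of all, at 12274 members, or 21.2%, against 8.04% of all CpGs tested. High methylation in all 6 libraries was found at 9244 members, or 15.9%, against 18.2%. Low methylation in all 6 libraries was rare, at 1439 members or 2.48%, against 33.9% of the other CpGs and 51.1% of the densely packed CpGs. The members low in all libraries had a median of 24 other CpGs within 500 bp, against 5 over all members.

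Single CpGs were chosen for their values, as those with the widest gap between the cell types, and are therefore described and not tested. They lie on UMD3.1, and their genes and sequence were not analysed here. At position 17808806 of chromosome 20, sperm had 0 of 15 and 0 of 20 methylated reads. By the approximate limit of 3 over the number of reads, a count of 0 methylated reads allows a level of up to 20% and 15% there. The upper Wilson 95% bounds for these counts were 20.4% and 16.1%. Levels that 0 reads allow are given below by the same approximate limit. The 4 somatic libraries were at 100% of 15 to 22 reads, with lower Wilson 95% bounds of 79.6% to 85.1%. The other two CpGs lowest in sperm lay 58 bp apart on chromosome 2, at 43576212 and 43576270, with 0% in both sperm libraries and 100% in the 4 others at 7 to 14 reads.

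The reverse was seen at position 55378001 of chromosome 13, where both sperm libraries were at 100% of 19 and 17 reads. The monocyte and fibroblast libraries had no methylated read among 17 to 19 reads each, which allows up to 15.8% to 17.6%. Positions 21443764 of chromosome 10 and 59310643 of chromosome 21 had the same values, at 12 to 28 and 11 to 27 reads.

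In fibroblasts alone, position 93102087 of chromosome 9 was at 0% of 19 and 25 reads, which allows up to 15.8% and 12.0%. The other 4 libraries there were at 100% of 16 to 18 reads. Positions 49611883 of chromosome 11 and 72331084 of chromosome 14 were likewise at 0% in both fibroblast libraries and at 100% in the others. The opposite pattern had no CpG with a gap of 100 points. At position 11641448 of chromosome 18, both fibroblast libraries were at 100% of 15 and 13 reads, sperm was at 0% and 5.56% and monocytes were at 6.67% and 10.0%. The other two, at 31953896 of chromosome 3 and 32118473 of chromosome 21, rested on 5 to 10 and 5 to 8 reads.

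In monocytes alone, position 47393164 of chromosome 29 was at 0% of 12 and 10 reads and at 100% in the other 4 libraries, at 10 to 14 reads. Positions 41197406 of chromosome 15 and 118163735 of chromosome 5 had the same values. In the other direction, position 4754985 of chromosome 27 was at 90.9% and 92.9% in monocytes, of 22 and 14 reads, and at 0% in the 4 others. Position 23103818 of chromosome 25 was at 93.3% and 100% in monocytes, of 15 and 5 reads, and at 0% to 2.22% elsewhere. Position 26167881 of chromosome 11 was at 100% in both monocyte libraries and at 6.25% to 10.3% in the other 4.

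The order of the cell types held along the genome. On 29 of 29 autosomes both sperm libraries were above every somatic library, and both fibroblast libraries below every other one. The average per autosome ran from 85.0% on chromosome 7 to 90.9% on chromosome 22 in sperm. It ran from 79.6% on chromosome 19 to 84.8% on chromosome 24 in monocytes, and from 55.3% on chromosome 29 to 62.9% on chromosome 9 in fibroblasts. The 1343 members in the first 2 Mb of the autosomes were an exception, with 81.6% and 81.1% for sperm, 83.3% and 82.2% for monocytes, with 56.3% and 58.2% for fibroblasts. The 3689 members in the last 2 Mb had 90.2% and 89.2%, 81.8% and 81.5%, and 58.9% and 60.1%.

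In bins of 1 Mb, 966 bins held at least 20 members, 44654 in all. Fibroblasts varied most from bin to bin, with SDs of 9.14 and 9.06 points, against 6.96 and 7.08 in sperm and 6.00 and 5.97 in monocytes. These bins held a median of 39 members, and single members also spread most widely in fibroblasts. The part of that spread in the SDs was not tested. The replicates followed each other over the bins, with Pearson's r of 0.970 for sperm, 0.930 for monocytes and 0.910 for fibroblasts, as a description over 966 bins that share the library. Replicates are read at the same CpGs, so that r does not tell the region from the CpGs sampled in it. Between cell types the mean r was 0.271 to 0.386. Fibroblasts were below monocytes in 965 of the 966 bins, and sperm was below monocytes in 106.

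The bins with the widest and the narrowest differences between the somatic cell types were chosen for that difference and are described only. The widest was from 6000001 to 7000000 on chromosome 25, with 33.2% and 27.7% in fibroblasts against 87.2% and 86.0% in monocytes over 21 members. The bin from 1000001 to 2000000 on chromosome 20 had 37.98% and 38.7% against 91.1% and 93.3% over 32 members. The bin from 91000001 to 92000000 on chromosome 11 had 22.4% and 26.9% against 80.3% and 75.7% over 23 members. At the other end, the bin from 88000001 to 89000000 on chromosome 9 had 69.4% and 59.8% in fibroblasts and 62.0% and 61.8% in monocytes, so that the groups overlapped. The bin from 25000001 to 26000000 on chromosome 5 was low in both, with 47.0% and 47.1% in fibroblasts and 48.8% and 47.8% in monocytes, against 84.3% and 83.1% in sperm. The bin from 85000001 to 86000000 on chromosome 8 had 72.2% and 76.1% in fibroblasts and 72.9% and 82.3% in monocytes.

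Neighbouring members resembled each other up to about 1000 bp, most in sperm and least in fibroblasts. For 4654 pairs of neighbouring members 51 to 75 bp apart, the mean Pearson's r was 0.818 for sperm, 0.674 for monocytes and 0.470 for fibroblasts. Between 500 and 1000 bp, over 1536 pairs, it was 0.605, 0.330 and 0.283. Between 10000 and 100000 bp, over 23762 pairs, the order was another, with 0.0671 in sperm, 0.0300 in monocytes and 0.125 in fibroblasts. These values describe pairs within a library that share its depth and, at short distance, can share reads, and no test was made.

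**Figure D5:**
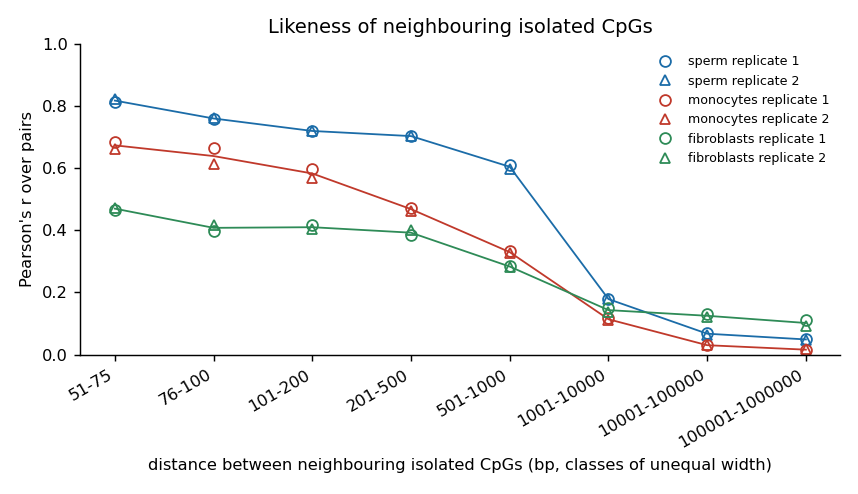
Pearson's r over pairs of neighbouring isolated CpGs, by their distance in bp in classes of unequal width, with 1 symbol per library and lines through the mean of the replicates. Sperm is highest up to 10000 bp, from 0.818 at 51 to 75 bp to 0.178 between 1000 and 10000 bp, and fibroblasts are highest beyond it, at 0.125 and 0.102.

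Across the members, replicates correlated with r = 0.925 in sperm, 0.878 in monocytes and 0.792 in fibroblasts, as a description over 58003 CpGs that are not independent. Between cell types r was 0.274 to 0.419, against 0.723 to 0.893 over the densely packed CpGs. The members' narrow range of levels in sperm and their lower depth go with these values, and their part in them was not tested.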

How the data were processed

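RRBS libraries of 2 sperm, 2 monocyte and 2 fibroblast samples were assigned to cell types from the labels. Per the submitters' processing notes, reads were trimmed (Trim Galore 0.3.7), mapped on UMD3.1 and called (Bismark 0.14.3). The deposited tables give, for each CpG, the coverage as read counts and the methylated share as a percent cut to 1 decimal by the authors, without filtering. Methylated reads were recovered as whole numbers, matching 100% of the values. The files list a CpG at either of 2 adjacent positions, so that these were joined and their reads summed, which 17734 members needed.

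The members, classes and tests were chosen with earlier results of these data known. A logistic regression on summed reads, judged by its likelihood ratio, called DMCs with Benjamini-Hochberg adjustment over all CpGs tested. Differences between libraries were judged by exact permutation, two-sided. Single CpGs were named by the widest gap between cell types, 3 per set, with ties going to the CpG with the highest minimum coverage over the libraries. Bins were named by the 3 lowest and 3 highest differences between fibroblasts and monocytes. On simulated data, the regression recovered 74.9% of 2000 CpGs changed by 50 points between monocytes and sperm among 100000, and 81.8% between fibroblasts and sperm. The 100000 CpGs and their depths were drawn from all CpGs tested, whose median coverage was higher than that of the members. The simulated reads had no variation between animals. Recovery at the members, or with such variation, was not measured. The alternatives are given in the closing section. Python 3.11.15 was used, and its packages numpy (2.4.6), numba (0.67.0), pandas (2.3.3), scipy (1.17.1) and matplotlib (3.10.9). Sequence context and gene annotation were not analysed here.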

Additional observations from a re-analysis of the deposited data

Results flagged for a closer look

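The 113 members with a mean coverage of 50 reads or more differed from the other members in the order of the cell types. The sperm libraries averaged 33.7% and 33.5% there, the monocyte libraries 78.3% and 77.5%, and those of fibroblasts 40.01% and 41.5%. Monocytes minus sperm came to 44.3 points there, against -5.76 points over the 9226 members of mean coverage 5 to under 10 reads. Both monocyte libraries were above both sperm libraries in the first class and below them in the second, and this difference between the classes was not tested. The 113 CpGs lay on 26 autosomes, 21 of them in the first 2 Mb, and both sperm libraries were below the 4 somatic libraries at 74, or 65.5%. Of the sperm-specific members among them, 19 of 19 were lower in sperm, against 29.0% of 4230 among the members of lower coverage. Low sperm levels were not particular to isolated CpGs at this coverage. The 23384 other CpGs of mean coverage 50 or more had averages of 22.0% for sperm, 78.9% for monocytes and 61.7% for fibroblasts, both sperm libraries were below the 4 somatic libraries at 90.5% of them, and 99.8% of their 14348 sperm-specific CpGs were lower in sperm.

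The 24 isolated CpGs with more than 500 reads in at least 1 library were not members. The 19 of them with at least 5 reads in all 6 libraries averaged 19.6% in sperm and 78.2% in monocytes, with 35.9% and 37.8% in the fibroblast libraries. Sperm was below monocytes at 18 of the 19.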

How the results depend on the processing

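None of the recomputed results changed direction under the alternatives run. Mean differences between cell types kept their order with other windows, coverage limits and weights, and so did the excess of isolated over other CpGs, from 25.1 to 29.5 points. Split at 10% and 90%, sperm minus somatic was -2.63, -39.3 and 41.9 points for the hypomethylated, intermediate and hypermethylated shares. A window of 30 bp gave -2.85 points for the hypomethylated share (exact permutation test, p = 0.8), so that sperm was no longer apart from all somatic libraries. Leaving out each library gave an excess of 24.1 to 29.6 points with p = 0.0625 by the exact permutation test, the smallest p for 5 libraries.

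Counts of called members moved with the number of members and the test. For monocytes against sperm, fibroblasts against sperm, monocytes against fibroblasts, sperm-specific members and members lower in fibroblasts alone, in this order, the counts were as follows. A minimum of 10 reads left 3049, 8844, 6893, 1366 and 5137 of 16387 members, or 18.6%, 54.0%, 42.1%, 8.34% and 31.3%, against 19.3%, 28.2%, 17.6%, 11.5% and 9.32% of all CpGs tested. A window of 30 bp gave 25744, 69023, 51258, 12222 and 36624 of 148563 members, or 17.3%, 46.5%, 34.5%, 8.23% and 24.7%. A window of 100 bp gave 1609, 6647, 4900, 761 and 3860 of 14122, or 11.4%, 47.1%, 34.7%, 5.39% and 27.3%. Over all CpGs tested the shares with either window were 18.3%, 28.5%, 17.4%, 11.0% and 9.61%. The common overdispersion gave 4670, 12015, 6123, 2066 and 4505. These counts were 8.05%, 20.7%, 10.6%, 3.56% and 7.77% of the members, against 13.5%, 16.1%, 6.55%, 8.29% and 3.33% of all CpGs tested. The replicate block, a Cochran-Mantel-Haenszel test paired by replicate number, gave 7695, 25251, 17981, 3849 and 13751, within 1.5 times the counts without it. They made up 13.3%, 43.5%, 31.0%, 6.64% and 23.7% of the members, against 17.5%, 26.5%, 15.4%, 10.8% and 8.47% of all CpGs tested. The samples share only their replicate numbers, with correlations of same-numbered deviations of -0.0102 to -0.00204. Leaving out each library used in the comparison gave 11737 to 17566 for monocytes against fibroblasts, always fewer than the 21085 from all libraries. These counts were 20.2% to 30.3% of the members, against 11.2% to 15.2% of all CpGs tested. For the members lower in fibroblasts alone, leaving out each of the 6 libraries gave 9247 to 14008, always fewer than the 15945 from all libraries. These were 15.9% to 24.2% of the members, against 6.14% to 8.54% of all CpGs tested. Without CpGs of mean coverage of 50 or more, chosen after seeing the data, no count moved by over 1.5 times. With only 113 members left out, counts of this size could not have moved so far. Differences under 25 points at single CpGs are not called at any depth. The share of members called between fibroblasts and sperm was 38.6% at a mean coverage of 5 to under 10 reads and 57.2% at 20 to under 30. Among the other CpGs it was 23.6% and 26.8% in these classes.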
